A study of Drosophila melanogaster with 7 samples.

Results

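The unfolded protein response and endoplasmic reticulum (ER) folding genes were followed in the third-instar trachea of Drosophila melanogaster, the branched epithelial tube that carries air through the larva. Of 31 gene names on the list, 27 had a row in the gene tables, among 17697 named rows. 26 matched exactly and sip3 matched ignoring case. Sil1 and Uggt stand in the tables under other symbols and were kept outside every member count, and Derlin-1 and Sel1L had no row of that name. Hop.CA animals, represented by 3 libraries, expressed Hop.CA, the form of the Drosophila JAK kinase used here to raise JAK/STAT signalling. Their rearing temperature of 18 °C was raised to 29 °C in the L2 stage, and tissue was taken 18 hours later. Control animals, represented by 4 libraries and called wild type in their titles, stayed at 18 °C. The strain label of all 7 libraries lists btl-Gal4 (a tracheal driver), UAS-GFP, UAS-Hop.CA and tub-Gal80ts, a repressor that is inactive in the warm. Hop.CA expression and temperature therefore cannot be told apart in any value below. The number of animals behind each library is not given, so p-values measure the spread between these libraries.

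Secreted and membrane proteins fold inside the ER, where chaperones, lectins and disulfide isomerases assist them. When unfolded proteins build up, the membrane sensors Ire1, PEK and Atf6 start the unfolded protein response. Ire1 cuts the Xbp1 messenger RNA so that it encodes an active transcription factor, PEK phosphorylates the initiation factor eIF2alpha and favours translation of crc (the fly ATF4), and Atf6 is itself a tethered transcription factor. Proteins that fail to fold leave by ER-associated degradation (ERAD). Larval tracheal cells secrete the chitinous lining of the airway.

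Reads assigned to genes numbered 16795748 to 20455268 per library. Values are CPM, the read count scaled to a common library size, and fold changes are log2 values of Hop.CA over control with their standard error (SE). edgeR's quasi-likelihood test gave the p-values, adjusted after Benjamini and Hochberg across all 9457 genes tested, and a gene rose or fell where the adjusted p was under 0.05. The label check read hop at 1444, 1593 and 1342 CPM in Hop.CA libraries, against 38.4, 43.3, 40.1 and 44.0 CPM in control libraries. The tracheal genes serp and verm were detected in every library, and so were muscle markers. On the second principal component, with 16.96% of the variance, control replicate 2 lay at 34.3, against -16.8 to -8.41 for the other controls. The Hop.CA libraries spread on it too, with replicates 1 to 3 at 20.1, -21.8 and 3.12.

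Every one of the 27 genes was tested, with 299 to 34474 reads per gene and library. 14 rose and 1 fell in Hop.CA tracheae, where 31.5% of all tested genes changed and 16.4% rose. The median log2 fold change was 0.32 over the 27 genes and -0.01 over all genes tested. 22 of the 27 had a log2 fold change above 0, against 49.3% of all genes. In 19 of them every Hop.CA library lay above every control library, as for 23.3% of all tested genes, and in 1 every Hop.CA library lay below, as for 20% of all tested genes. No change reached 2-fold, as 8.9% of all tested genes did with a call, and values ran from -0.39 to 0.79 on the log2 scale. Summed over the 27 genes, the level was 12334, 11968 and 12293 CPM in Hop.CA replicates 1 to 3, and 9167, 8919, 8700.2 and 8255 CPM in control replicates 1 to 4. The groups thus did not overlap in the sum. It follows mostly the abundant genes, led in Hop.CA libraries by Calr, crc and Pdi with means of 1714, 1648 and 1608 CPM. The libraries are bulk preparations, so more expressing cells and more RNA per cell cannot be told apart.

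**Figure D1:**
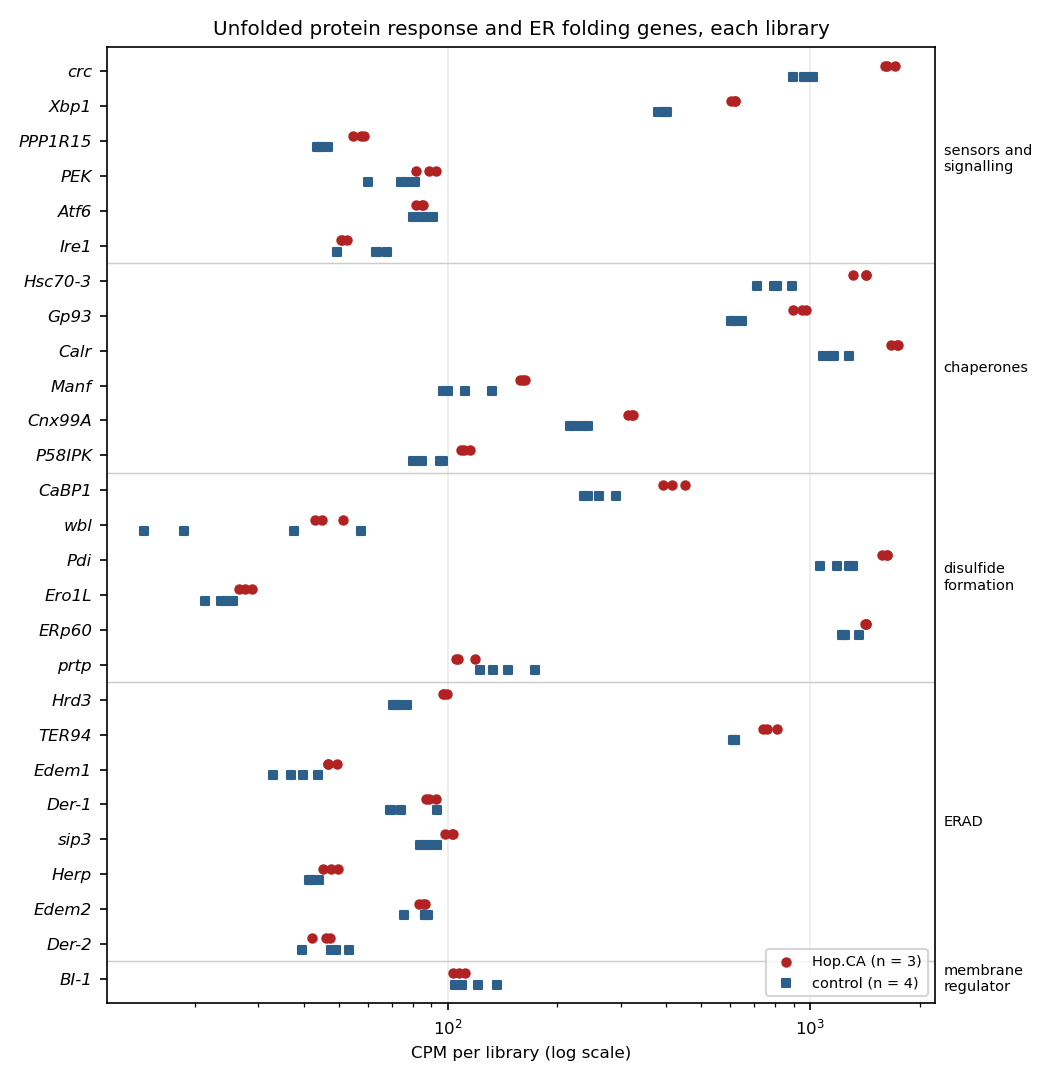
CPM of each of the 27 genes in each library on a log scale, ordered by role and fold change, with Hop.CA libraries (n = 3) as circles above control libraries (n = 4) as squares. In 19 genes every circle lies to the right of every square, as for 23.3% of all tested genes. Among them are crc, Xbp1 and all 6 chaperone genes. In prtp every circle lies to the left of every square, as for 20% of all tested genes. Ire1, Atf6, wbl, Der-1, Edem2, Der-2 and BI-1 overlap between the groups.

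Among the sensors and their signalling genes, the transcription factor genes crc and Xbp1 rose and none of the genes of the sensors themselves passed the test. crc was at 1708, 1605 and 1632 CPM in Hop.CA libraries, against 996, 1019, 962 and 896 CPM in control libraries. The libraries of the groups were far apart, and the log2 fold change was 0.77 ± 0.0773 (SE, adjusted p = 0.000681). Xbp1 had 619, 605 and 620.1 CPM in Hop.CA libraries and 392, 398, 402 and 380.2 CPM in control libraries. All Hop.CA values again lay above all control values (log2 0.65 ± 0.0662 SE, adjusted p = 0.000731). PPP1R15, the fly GADD34, which directs a phosphatase to eIF2alpha, averaged 57.0 ± 2.08 CPM in Hop.CA and 44.7 ± 1.38 CPM in control libraries (SD, n = 3 and n = 4; log2 0.35 ± 0.0651 SE, adjusted p = 0.00665).

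The sensor genes themselves lay close to or within the spread of the controls. Ire1 had 50.9, 50.7 and 52.8 CPM in Hop.CA libraries, against 49.5, 67.8, 63.9 and 63.3 CPM in control libraries. Only control replicate 1 lay below the Hop.CA libraries, and the test was not passed (log2 -0.25 ± 0.111 SE, adjusted p = 0.123). Without control replicate 1 Ire1 was called lower (log2 -0.35, adjusted p = 0.00497), so that library decides the call. PEK stood at 88.5, 81.5 and 92.6 CPM in Hop.CA libraries and 60.1, 74.2, 76.7 and 81.0 CPM in control libraries. The groups did not overlap but nearly touched (log2 0.26 ± 0.110 SE, adjusted p = 0.104). Atf6 averaged 83.8 ± 1.96 CPM in Hop.CA and 85.3 ± 4.56 CPM in control libraries (SD, n = 3 and n = 4), with overlapping groups (log2 -0.03 ± 0.0693 SE, adjusted p = 0.798).

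What the gene tables can say of Xbp1 and crc is limited by how their reads were assigned. In the dm6 annotation of Ensembl, 1 of the Xbp1 transcripts has an intron of 23 bases, the piece that Ire1 removes, and the other keeps it. The exon length of Xbp1 in the tables, 2142 bases, covers that piece, so the counts do not separate cut from uncut messenger RNA and the rise is one of all Xbp1 transcripts. crc (chromosome 2L, 21310866 to 21319527, plus strand, dm6) shares all exons of its transcript crc-RB with the gene CG46314, and 31.8% of its reads were uniquely assigned. Those unique reads numbered 10408, 9802 and 10248 in Hop.CA libraries and 5511, 6644, 5167 and 5920 in control libraries. crc rose on unique reads too (log2 0.81 ± 0.0727 SE, adjusted p = 0.000488). Ire1 overlaps CG4662 on the opposite strand, with 88.7% of its reads unique, and did not pass on unique reads (log2 -0.23, adjusted p = 0.175).

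All 6 measured genes grouped here as chaperones rose, where 16.4% of all tested genes rose. The grouping by role was made for this report. The 6 genes of disulfide bond formation, whose isomerases also assist folding, are counted apart, and 2 of them rose and 1 fell. Hsc70-3 (BiP, the ER member of the Hsp70 family; X, 11801696 to 11807117, minus strand, dm6) was at 1423, 1309.6 and 1421 CPM in Hop.CA libraries, against 808, 888, 795 and 714 CPM in control libraries. Its log2 fold change was 0.79 ± 0.0922 (SE, adjusted p = 0.00118), a 1.73-fold difference and within the SE of that of crc. Gp93, the ER member of the Hsp90 family, had 950.2, 896 and 972 CPM in Hop.CA libraries and 606, 647, 622 and 617 CPM in control libraries (log2 0.59 ± 0.0710 SE, adjusted p = 0.00129). Neither gene had overlapping groups.

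The lectin chaperones, which hold newly made glycoproteins, rose as well. Calr, calreticulin, was at 1738, 1664 and 1741 CPM in Hop.CA libraries and at 1276, 1146, 1163 and 1081 CPM in control libraries (log2 0.56 ± 0.0815 SE, adjusted p = 0.00273). Cnx99A, a calnexin, was at 314, 322 and 325 CPM in Hop.CA libraries and at 217, 223, 244 and 236 CPM in control libraries (log2 0.48 ± 0.0720 SE, adjusted p = 0.00300). In both, the lowest Hop.CA library exceeded the highest control library. Manf, which encodes a small ER-resident and secreted protein, averaged 161 ± 2.56 CPM in Hop.CA and 110.1 ± 15.9 CPM in control libraries (SD, n = 3 and n = 4; log2 0.55 ± 0.112 SE, adjusted p = 0.00929). P58IPK, a J-domain partner of BiP, averaged 112 ± 3.40 CPM in Hop.CA and 89.3 ± 7.99 CPM in control libraries (SD; log2 0.32 ± 0.0849 SE, adjusted p = 0.0239). The P58IPK call was lost without any 1 Hop.CA library or without control replicate 4 (adjusted p = 0.0555 to 0.0924).

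**Figure D2:**
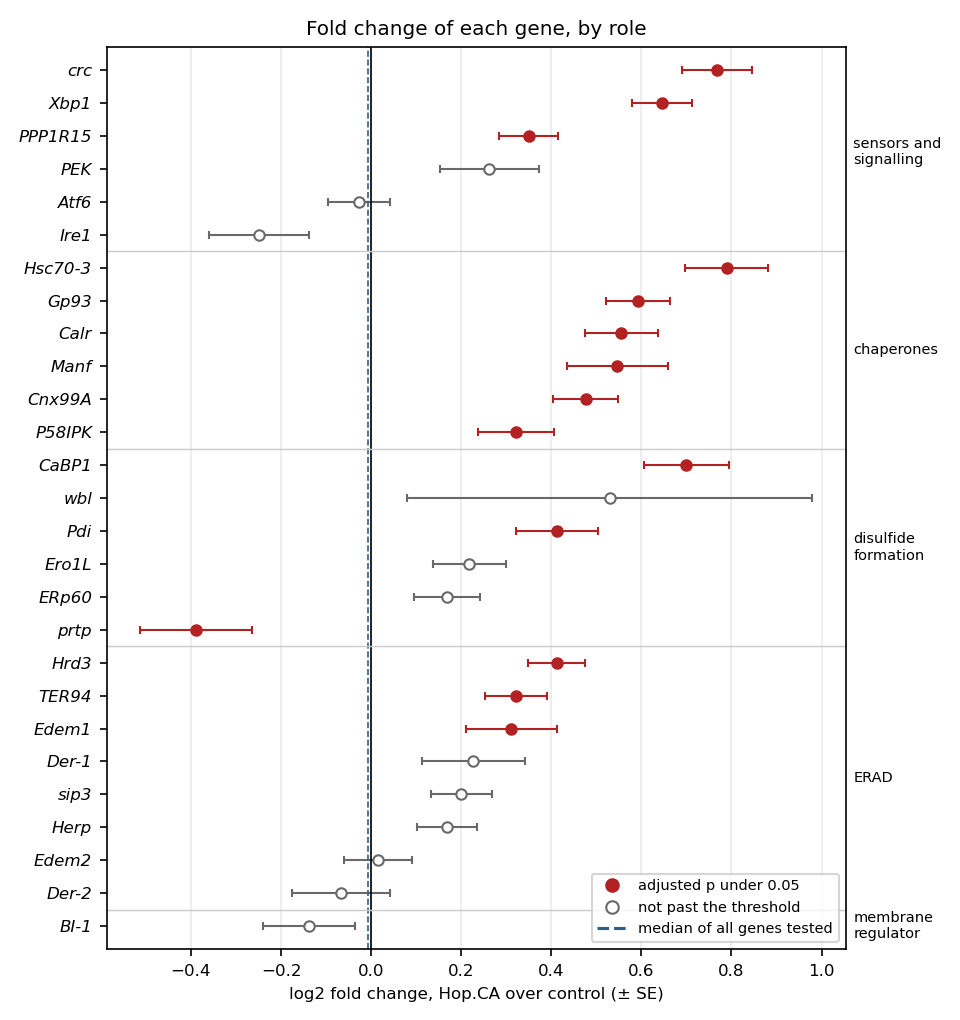
Log2 fold change of Hop.CA over control with its standard error for each of the 27 genes, grouped by role, with filled symbols for adjusted p under 0.05 and a dashed line at the median of all genes tested. All 6 chaperones are filled and lie between 0.32 and 0.79, where 16.4% of all tested genes rose. prtp is the only filled symbol below 0.

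Of 6 genes of disulfide bond formation 2 rose and 1 fell, where 16.4% of all tested genes rose and 15.1% fell, and 5 of the 6 had a log2 fold change above 0. CaBP1, a protein disulfide isomerase, was at 449.7, 392 and 416 CPM in Hop.CA libraries, against 290.0, 262, 244 and 237 CPM in control libraries (log2 0.70 ± 0.0951 SE, adjusted p = 0.00197). Pdi, the founding member of that enzyme family, was at 1624, 1576 and 1624 CPM in Hop.CA libraries and at 1309, 1278, 1184 and 1061 CPM in control libraries. Its groups did not overlap (log2 0.41 ± 0.0915 SE, adjusted p = 0.0127), but the call was lost without Hop.CA replicate 1 or 3 (adjusted p = 0.0528 and 0.0551).

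Another isomerase gene, ERp60, was at 1425, 1425 and 1418 CPM in Hop.CA libraries and 1358, 1226, 1230.0 and 1247 CPM in control libraries. It did not pass (log2 0.17 ± 0.0732 SE, adjusted p = 0.114), and it did without control replicate 1, its highest control library (adjusted p = 0.0231), and with DESeq2 (adjusted p = 0.0267). prtp, a thioredoxin-domain ER protein known in flies also as a ligand for the engulfment of dying cells, had 106, 118 and 105 CPM in Hop.CA libraries and 174, 122, 146 and 133 CPM in control libraries. It is the 1 gene of the 27 that fell (log2 -0.39 ± 0.125 SE, adjusted p = 0.0473). The prtp call was close to the threshold and was lost in 5 of the 7 fits that left out 1 library, those without any 1 Hop.CA library, without control replicate 3 or without control replicate 4 (adjusted p = 0.0595 to 0.153). It was also lost with no filter on low counts (0.0521) and with limma-voom (0.0504).

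Ero1L, the oxidase that recharges the isomerases, averaged 27.6 ± 1.21 CPM in Hop.CA and 23.8 ± 1.77 CPM in control libraries (SD, n = 3 and n = 4; log2 0.22 ± 0.0808 SE, adjusted p = 0.0739). wbl, windbeutel, an ER protein needed in the ovary for dorsoventral patterning of the embryo, had 43.1, 44.9 and 51.3 CPM in Hop.CA libraries and 37.6, 57.6, 18.7 and 14.5 CPM in control libraries. Its control libraries spread more widely than those of any other of the 27 genes, with a coefficient of variation of 61.4%, and it did not pass (log2 0.53 ± 0.450 SE, adjusted p = 0.401).

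In ERAD, 3 of 8 genes rose and none fell by edgeR, where 16.4% of all tested genes rose and 15.1% fell. Of the 8, none was lower at an unadjusted p under 0.05 or by DESeq2. Hrd3, the partner of the ubiquitin ligase that draws proteins out of the ER, was at 96.6, 97.3 and 99.3 CPM in Hop.CA libraries, against 72.2, 70.5, 74.0 and 77.2 CPM in control libraries. Its groups were well apart (log2 0.41 ± 0.0636 SE, adjusted p = 0.00320). The ligase gene itself, sip3 (the fly Hrd1), had 103, 103 and 98.0 CPM in Hop.CA libraries and 93.4, 86.6, 88.9 and 83.5 CPM in control libraries. Its groups did not overlap and its adjusted p was just over the threshold (log2 0.20 ± 0.0672 SE, adjusted p = 0.0545). sip3 passed without control replicate 1 (adjusted p = 0.0183), with DESeq2 (0.0252) and on exon reads (0.0496).

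TER94, the ATPase that pulls ubiquitylated proteins from the membrane, had 741, 809.6 and 759 CPM in Hop.CA libraries and 614, 618, 613 and 619 CPM in control libraries. The control libraries were nearly identical and all lay below the Hop.CA libraries (log2 0.32 ± 0.0692 SE, adjusted p = 0.0113). Without Hop.CA replicate 2, the highest library, the adjusted p of TER94 was 0.0535. Edem1, a lectin that marks glycoproteins for disposal, averaged 47.6 ± 1.62 CPM in Hop.CA and 38.3 ± 4.54 CPM in control libraries (SD, n = 3 and n = 4; log2 0.31 ± 0.101 SE, adjusted p = 0.0488). Its call was lost in 6 of the 7 fits that left out 1 library, all but that without control replicate 2 (adjusted p = 0.0528 to 0.149), and also with RLE size factors (0.0575), library size only (0.0860), other filters (0.0506 and 0.0565) or exon reads (0.0524). The related Edem2 was at 85.1 ± 1.55 CPM in Hop.CA and 84.2 ± 5.87 CPM in control libraries (SD; log2 0.02 ± 0.0759 SE, adjusted p = 0.898). Whether Edem1 and Edem2 differ in their change was not tested.

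The remaining ERAD genes did not pass. Der-1 and Der-2 encode Derlins, membrane proteins at the exit channel. Der-1 had 87.1, 92.8 and 88.7 CPM in Hop.CA libraries and 93.2, 69.5, 74.1 and 69.3 CPM in control libraries. Control replicate 1 alone lay above the Hop.CA libraries, and the other controls lay below them (log2 0.23 ± 0.114 SE, adjusted p = 0.164). Without control replicate 1 Der-1 was called higher (log2 0.33, adjusted p = 0.00586). Der-2 averaged 45.2 ± 2.67 CPM in Hop.CA and 47.4 ± 5.74 CPM in control libraries (SD; log2 -0.07 ± 0.108 SE, adjusted p = 0.668). Herp, a membrane scaffold of the same complex, averaged 47.5 ± 2.29 CPM in Hop.CA and 42.3 ± 1.22 CPM in control libraries (SD; log2 0.17 ± 0.0672 SE, adjusted p = 0.0908). BI-1, an ER membrane protein that restrains cell death, was at 107 ± 3.93 CPM in Hop.CA and 118 ± 14.4 CPM in control libraries (SD; log2 -0.14 ± 0.102 SE, adjusted p = 0.330).

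The listed genes Sil1 and Uggt appear in the tables as CG10420 and Ugt. Sil1, an exchange factor for BiP, was at 33.5, 33.2 and 30.9 CPM in Hop.CA libraries and 20.3, 20.6, 21.5 and 19.6 CPM in control libraries (log2 0.67 ± 0.0676 SE, adjusted p = 0.000700). Uggt, which tests whether glycoproteins are folded, was at 223, 222 and 231 CPM in Hop.CA libraries and 162, 174, 174 and 171 CPM in control libraries (log2 0.41 ± 0.0645 SE, adjusted p = 0.00362). Both rose on total reads, and neither passed on exon-exon reads (adjusted p = 0.288 for CG10420 and 0.458 for Ugt), which number at most 39 and 19 per library.

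Levels between genes were compared with the deposited RPKM, which divides exon reads by exon length. In Hop.CA libraries Calr (1011 RPKM) came first and ERp60 (778 RPKM) next. In control libraries ERp60, at 694 RPKM, and Calr, at 690.1 RPKM, were highest and within 1 SD of each other. Pdi (516 RPKM), crc (279), Hsc70-3 (222), Gp93 (218), Xbp1 (183) and TER94 (177) followed, and Edem1 was lowest at 8.0 RPKM. Hsc70-3 and Gp93, Xbp1 and TER94, and 13 further neighbours of the 26 in this order had overlapping ranges of mean ± 1 SD. The sensor genes were low throughout, Atf6, Ire1 and PEK standing at 19.6, 12.6 and 17.8 RPKM in Hop.CA libraries and at 20.1, 15.1 and 14.9 RPKM in control libraries.

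Of the 14 genes that rose, 9 stood at 100 RPKM or more in control libraries. Of the 10 genes with at least 100 RPKM in control libraries, 9 rose and ERp60 did not pass, where 18.5% of all 702 tested genes at that level rose. Their median log2 fold change was 0.57, against -0.02 over those 702 genes. Of the 17 genes under 100 RPKM, 5 rose and 1 fell, where 16.2% of all tested genes under that level rose. Their median log2 fold change was 0.22. The limit of 100 RPKM was chosen after the values were seen. The median SE was 0.0794 for the 10 genes and 0.0849 for the 17.

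**Figure D3:**
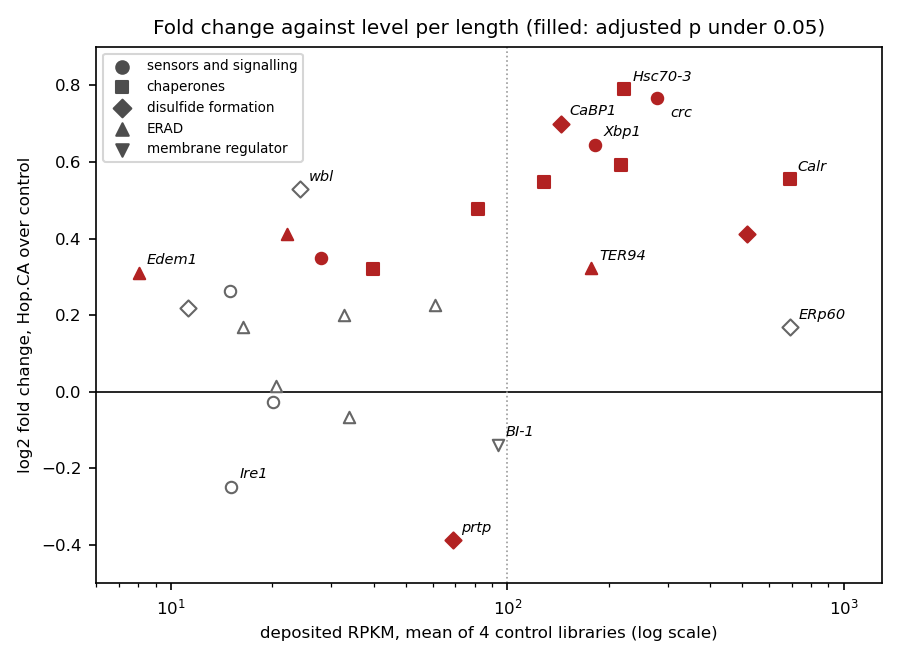
Log2 fold change of Hop.CA over control against the deposited RPKM in control libraries (mean of 4, log scale) for the 27 genes, with a symbol for each role, filled where adjusted p was under 0.05, and a dotted line at 100 RPKM. Of the 10 genes right of the line 9 are filled and above 0, where 18.5% of all tested genes at that level rose. Of the 17 to its left 5 are filled above 0 and prtp is filled below 0. Of all tested genes under that level 16.2% rose. The line was set after the values were seen.

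Reads that span exon junctions come only from spliced transcripts and were counted separately by the authors. On these exon-exon reads 10 of the 27 genes rose and 1 fell, where 14.1% of the 6113 genes tested on them changed and 7.03% rose. All 11 calls had the same direction on total reads. Hsc70-3 had 437 to 570 exon-exon reads per Hop.CA library and 223 to 314 per control library (log2 0.95 ± 0.119 SE, adjusted p = 0.00106). prtp had 190 to 202 per Hop.CA library and 242 to 293 per control library, and fell on these reads with a smaller p than on total reads (log2 -0.52 ± 0.102 SE, adjusted p = 0.00941). PPP1R15, P58IPK, TER94 and Edem1 did not pass on them (adjusted p = 0.218 to 0.764), PPP1R15 with at most 31 and Edem1 with at most 28 such reads per library.

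The median coefficient of variation of the 27 genes was 3.32% in Hop.CA and 7.44% in control libraries, against 7.84% and 12.9% over all tested genes. wbl, prtp, Der-1, Manf and Ire1 exceeded that median of all genes in control libraries, at 61.4%, 15.4%, 14.8%, 14.5% and 13.1%. The comparison was not matched for level: the 27 genes had at least 299 reads in each library, and the genes tested include some with far fewer. Control replicate 1 was the highest control library for 13 of the 27 genes, against 33.4% of all tested genes. Control replicate 4 was the lowest for 14, a share not taken over all genes. Without control replicate 1, 18 of the 27 genes were called, of which 16 rose and 2 fell, where 36.4% of all genes were called in that fit. Without Hop.CA replicate 1, 2 or 3, 11 were called each time, all of them higher, where 19%, 23.1% and 17.4% of all genes were called in those fits. With control replicate 2 and Hop.CA replicate 1 both left out, 9 were called, where 16.4% of all genes were, and Pdi, prtp, Edem1, P58IPK, Manf and TER94 were not (adjusted p = 0.0567 to 0.114).

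A further 36 genes of the same pathway, outside the list, were all measured. Of these 36, 16 rose and none fell by edgeR's test, where 16.4% of all tested genes rose and 15.1% fell. Like the other lists, these 36 genes were chosen with earlier results of these data known. Their share of rises is therefore not an independent second test of the pathway. At an unadjusted p under 0.05, 19 were higher and 2 lower, and DESeq2 called those 2 lower as well as 17 higher. The 2 were RtcB, the RNA ligase that in mammals rejoins the cut Xbp1 message, and Fkbp14, an ER prolyl isomerase gene, both named after their values were seen (edgeR log2 -0.21 and -0.30, adjusted p = 0.0565 and 0.0510). The median log2 fold change of the 36 was 0.27. Of 13 signalling genes 6 rose. Gcn2, another kinase of eIF2alpha, was at 42.8, 39.8 and 40.9 CPM in Hop.CA libraries and 16.2, 21.7, 23.0 and 25.6 CPM in control libraries (log2 0.93 ± 0.140 SE, adjusted p = 0.00301). CrebA, a transcription factor of secretory genes, was at 95.5, 85.8 and 99.9 CPM in Hop.CA libraries and 50.2, 74.6, 54.4 and 54.7 CPM in control libraries, with no overlap (log2 0.68 ± 0.140 SE, adjusted p = 0.00960). eIF2alpha rose by 0.37 ± 0.0753 on the log2 scale (SE, adjusted p = 0.00929), and Nmdmc, a mitochondrial folate enzyme gene, by 0.67 ± 0.105 (SE, adjusted p = 0.00357). Thor, the translation inhibitor 4E-BP, averaged 398 ± 47.8 CPM in Hop.CA and 239.8 ± 67.0 CPM in control libraries (SD; log2 0.73 ± 0.207 SE, adjusted p = 0.0314), and lost its call in 5 of the 7 fits that left out 1 library (adjusted p = 0.0539 to 0.100).

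Of 12 further folding genes 5 rose, where 16.4% of all tested genes rose. sel, a Canopy-family gene, had 93.7, 96.4 and 103 CPM in Hop.CA libraries and 56.7, 41.2, 48.2 and 38.2 CPM in control libraries, and was the 1 pathway gene that changed at least 2-fold (log2 1.09 ± 0.135 SE, adjusted p = 0.00142). Grp170, listed as CG2918 and encoding a large Hsp70-related partner of BiP, averaged 348 ± 4.60 CPM in Hop.CA and 218 ± 13.1 CPM in control libraries (SD; log2 0.68 ± 0.0740 SE, adjusted p = 0.000910). Qsox1, listed as CG4670 and encoding a sulfhydryl oxidase, rose by log2 0.51 ± 0.0964 (SE, adjusted p = 0.00715), and the glucosidase subunit gene GCS2beta by log2 0.49 ± 0.0629 (SE, adjusted p = 0.00168).

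Of 11 further ERAD genes 5 rose, where 16.4% of all tested genes rose. Spp, an intramembrane peptidase of the ER, averaged 299 ± 2.63 CPM in Hop.CA and 202 ± 18.0 CPM in control libraries (SD; log2 0.57 ± 0.0853 SE, adjusted p = 0.00288). alpha-Man-Ib, which trims mannose, rose by log2 0.50 ± 0.0810 (SE, adjusted p = 0.00383). The ubiquitin-conjugating enzyme gene Ubc7 rose by log2 0.38 ± 0.0641 (SE, adjusted p = 0.00480), and the ubiquilin gene Ubqn by log2 0.36 ± 0.0758 (SE, adjusted p = 0.0109, and 0.0523 without Hop.CA replicate 3).

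Of 10 muscle markers 6 fell, where 15.1% of all tested genes fell, and the median log2 fold change of all 10 was -1.27. The calls of Mlc1, Tm2 and wupA were lost in 5 of the 7 fits that left out 1 library, and that of Mlc2 without Hop.CA replicate 1 or 3. Act57B was the most abundant in both groups, followed by Mhc in Hop.CA and by Mlc2 in control libraries. Summed, the muscle markers stood at 3049, 9374 and 4076 CPM in Hop.CA libraries and 12299, 9082, 15206 and 19255 CPM in control libraries. The sums overlapped only through Hop.CA replicate 2 and control replicate 2. The part of muscle in the results was not tested.

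The 9 detected tracheal markers summed to 14960 to 15754 CPM in Hop.CA libraries and 9961 to 10694 CPM in control libraries. Most of this sum came from verm and serp, which both rose. trh rose too (adjusted p = 0.0387), but lost its call in 5 of the 7 fits that left out 1 library. btl fell (adjusted p = 0.0138), a call lost without Hop.CA replicate 1, and 5 did not pass. Of all tested genes 16.4% rose and 15.1% fell. The median log2 fold change of the 9 tracheal markers was -0.24, and 4 of them were lower at an unadjusted p under 0.05 and 3 by DESeq2. Of 8 imaginal disc markers 6 fell, where 15.1% of all tested genes fell. However, without Hop.CA replicate 3 the calls of vg, nub, ap, wg and en were lost, and without Hop.CA replicate 1 or 2 that of dpp. The 8 had sums of 251 to 295 CPM in Hop.CA and 267 to 410.5 CPM in control libraries, sd and hth being the most abundant. None of 8 fat body markers, led by Lsp1beta and Lsp1gamma, and none of 9 hemocyte markers, led by PPO2 and PPO1, was called by edgeR or DESeq2, and none had an unadjusted p under 0.05. They summed to 2352 to 4506 and 1267 to 2551 CPM in Hop.CA libraries and to 1882 to 6548 and 1900.4 to 2107 CPM in control libraries.

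Of 7 salivary gland markers, a tissue rich in ER, 6 were too low to test. Their sum was 1.31 to 6.56 CPM in Hop.CA and 0.595 to 2.02 CPM in control libraries and sage, the most abundant of them in control libraries, rose (log2 2.15, adjusted p = 0.00821). Ring gland markers, led by nvd in Hop.CA and sad in control libraries, summed to 14.6 to 15.3 CPM in Hop.CA and 18.4 to 103 CPM in control libraries, the highest value being that of control replicate 2. Of the 5 tested, phm fell (log2 -5.62, adjusted p = 0.0465), a call lost without any 1 Hop.CA library, and 3 were lower at an unadjusted p under 0.05 and 2 by DESeq2. The part of these tissues in the results was not tested.

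Of 18 genes of a heat shock list, which holds heat-induced genes, the constitutive Hsc70-4 and the regulator Hsf, 5 rose and 3 fell, where 16.4% of all tested genes rose and 15.1% fell, and the median log2 fold change was 0.05. The changes of single genes were large in both directions, and those named next were chosen after their values were seen. Hsp70Bb was at 357, 371 and 332 CPM in Hop.CA libraries, against 9.96 to 17.5 CPM in the 4 control libraries (log2 4.81, adjusted p = 3.14e-05). Hsp22, Hsp23 and CG4456 rose by log2 2.27, 1.87 and 1.53, while Hsp70Ba, Hsp70Ab and Hsp68 fell by 3.15, 2.24 and 1.93 on the log2 scale. The Hsp70 genes are near-identical copies, and 74.2% of the reads of Hsp70Bb and none of those of Hsp70Ab were unique, so their split is uncertain. None of the reads of Hsp22 and 1.29% of those of CG4456 were unique, so the assignment of their reads is uncertain as well. Hsp22 was also low, with 5 to 61 reads per library. The calls of Hsp23, Hsp70Ab and Hsp68 were each lost without some single libraries. Hsc70-4 and Hsp83 were the most abundant. The list summed to 6693 to 7758 CPM in Hop.CA and 5366 to 6508 CPM in control libraries. Hsc70-4, the cytosolic relative of Hsc70-3, rose by log2 0.44 (adjusted p = 0.0149, lost without Hop.CA replicate 1 or 3 or control replicate 3), and Hsp83, the cytosolic relative of Gp93, did not pass (log2 -0.13, adjusted p = 0.319). The part of heat shock in the results was not tested, and it cannot be told apart from that of Hop.CA.

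**Figure D4:**
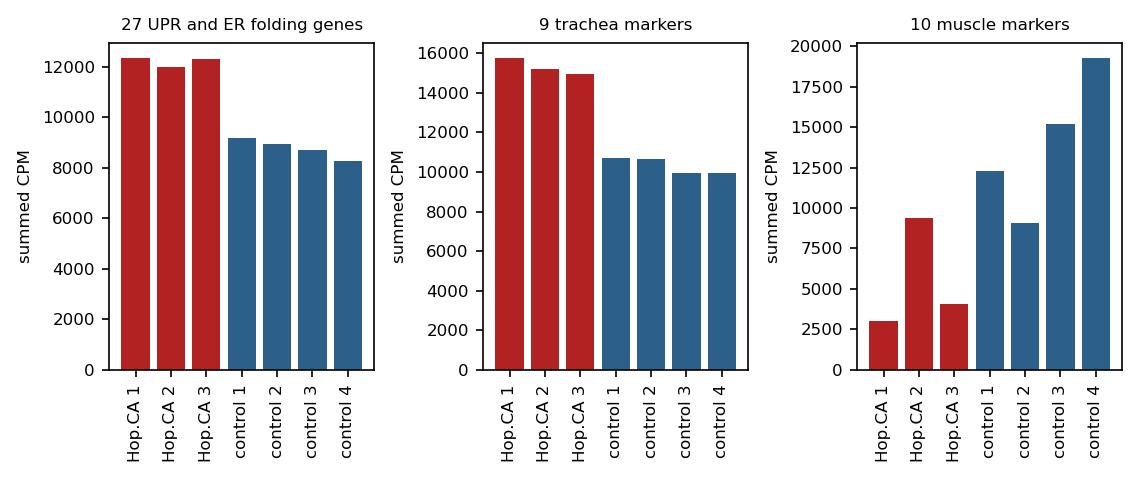
Summed CPM in each library for the 27 unfolded protein response and ER folding genes, the 9 tracheal markers and the 10 muscle markers, with Hop.CA libraries left of control libraries and axes from 0. The sums of the 27 genes and of the tracheal markers are higher in every Hop.CA library than in any control library. Most of the tracheal sum comes from verm and serp, and 5 of the 9 tracheal markers had a log2 fold change below 0. The sums of the muscle markers overlap between Hop.CA replicate 2 (9374 CPM) and control replicate 2 (9082 CPM).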

How the data were processed

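RNA of larval tracheae was measured by stranded mRNA sequencing in 3 Hop.CA and 4 control libraries, grouped by their titles. The deposited per-library tables hold read counts per gene (total, unique, exon, intron and exon-exon reads) and an RPKM computed by the authors from exon reads. Per the submitters' processing notes, reads were trimmed with cutadapt 1.8.1 and the build was dm6. The aligner, the counter, the use of strand and the treatment of multiply aligned reads were not given in any source used here. The tables show that 9.07% to 10.7% of gene reads were not unique. 12 of the 27 genes overlap another gene: Ire1, crc, Gp93, Pdi, ERp60, Edem1, Edem2, P58IPK, sip3, Hrd3, Manf and TER94. Unique reads made up 31.8% of the reads of crc, 88.7% of Ire1 and 93.8% of Pdi, whose split is uncertain, and at least 98.3% of those of the others. The 1 row without a gene name held no reads and was left out.

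Total gene read counts were tested with edgeR 4.0.16 in R 4.3.3: filterByExpr (minimum count 10, minimum total 15), TMM normalisation and the robust quasi-likelihood test of Hop.CA against control, with Benjamini-Hochberg adjustment over 9457 genes at 0.05. The SE is the absolute log2 fold change divided by the square root of F, and CPM uses TMM library sizes. Named genes are all 27 members, hop as the label check, the 4 largest passing changes in each group of the other pathway list with CrebA, eIF2alpha and Thor, the 2 most abundant genes of each marker list, and CG10420 and Ugt as listed genes under other symbols. RtcB, Fkbp14, Archease and the further marker and heat shock genes were named after their values were seen. Alternatives were DESeq2 1.42.0, limma-voom (limma 3.58.1), other normalisations, filters, read classes and thresholds, a replicate block, and leaving out libraries. The fit on exon-exon reads was added after seeing the data. The members and lists were chosen with earlier results of these data known. The test was run on 2 draws of simulated data. The share of genes changed 4-fold that it called passed the limit of 80% set for it in 1 draw and missed it in 1, and the limit was no longer required after the miss was seen. No 2 libraries agreed within sampling noise. Transcripts come from the Ensembl annotation of dm6, and other gene symbols from RefSeq. Depth sets counting precision, and no separate cultures or pools are described beyond the titles' biological replicates.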

Additional observations from a re-analysis of the deposited data

Results flagged for a closer look

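In a group of 4 libraries, a library was singled out when its gap to the nearest other, as a share of the group's whole range, exceeded Dixon's critical value at 95%. Of the 28 gene values tested in this way over the control libraries, 2 met this, and chance alone marks about 1 in 20 groups. For ERp60, control replicate 1 was the highest control library, with a gap of 0.837 of the range (1358 CPM, against 1226 to 1247 CPM in the other controls). For Edem2, control replicate 1 was the lowest, with a gap of 0.864 of the range (75.5 CPM, against 86.5 to 88.2 CPM in the other controls). The cause was not tested.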

How the results depend on the processing

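Over 20 alternatives, 482 of 540 values of the 27 genes kept their direction and side of the threshold, 47 no longer passed, 7 newly passed and 4 changed sign. The sign changes were of genes near 0: Atf6 was at log2 0.11 on exon-exon reads, -0.0661 to 0.00443 without 1 library (above 0 without control replicate 2) and 0.0262 with control replicate 2 and Hop.CA replicate 1 left out together, and Edem2 was at log2 -0.0434 to 0.0303 without 1 library (below 0 without control replicate 1). Xbp1, crc, Hsc70-3, Gp93, Calr, Cnx99A, CaBP1 and Hrd3 passed at an adjusted p of 0.05 in all 19 alternatives that kept this threshold. The share of all tested genes that passed in all 19 was not taken. The 15 calls among the 27 genes became 11 to 18 when 1 library was left out and 9 with control replicate 2 and Hop.CA replicate 1 left out. Among the 36 other pathway genes the 16 calls, all higher, became 7 on exon-exon reads (34 genes tested, 6 higher and Archease lower) and 12 to 21 without 1 library. Over all genes the 2978 calls became 863 on exon-exon reads (6113 genes tested), 1312 at an adjusted p of 0.01, 1573 with that pair left out and 1676 to 3407 without 1 library. Replicate numbers did not pair the libraries: deviations of same-numbered libraries correlated at -0.2235, -0.4317 and -0.0694. With the replicate number as a block (replicate block), 938 genes, 8 of the 27 genes and 7 of the other pathway genes were called, and Ugt had an adjusted p of 0.0556. The median log2 fold change of the 27 genes was 0.32 without the block and 0.32 with it, and 0.22 on exon-exon reads. On exon-exon reads depth is lowest for Edem1, PPP1R15 and Atf6, with at most 28, 31 and 32 such reads per library.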
